A study of Mus musculus with 6 samples.

Results

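The genes described here encode the proteins of the mitochondrial ribosome. They were taken by name: every gene symbol that starts with Mrpl (large subunit) or Mrps (small subunit), followed by a number and at most a letter a, b or c. This rule found 76 of the 33006 genes in the count tables, 47 Mrpl and 29 Mrps genes. They were measured in cultured primary pulmonary endothelial cells of C57BL/6 mice, which had been given 300 uM hydrogen peroxide (H2O2) or, as control, plain water for 6 hours. The labels give 3 libraries with H2O2 and 3 control libraries and name no genotype difference, sex or age. Nothing in them says that the 3 libraries of a group are from different animals or dishes, and the p-values below therefore speak only of the spread among libraries, part or all of which may be technical.

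The mitochondrial ribosome translates the few messenger RNAs of the mitochondrial genome, which encode membrane subunits of the respiratory chain and of ATP synthase. Its ribosomal RNAs are transcribed from mitochondrial DNA, whereas all of its proteins are encoded in the nucleus, made in the cytosol and imported. Part of these proteins descend from those of the bacterial ribosome, and the rest were added during the evolution of mitochondria.

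The libraries held 22455388 to 27618679 counts on genes, and the 76 members took 0.292% to 0.315% of them. Library H2O2 3 stood apart from the other libraries of its group, as the chi-square of its counts over genes, per degree of freedom, was 9.13 against H2O2 1 and 11.7 against H2O2 2, where the other pairs of libraries within a group gave 1.64 to 2.96. Markers of endothelial cells summed to 4430 to 4473 CPM (read counts relative to library size, after TMM scaling) with H2O2 and 4187 to 4326 CPM in controls, and 9 of 10 were above 1 CPM, with Cldn5 below. The 7 epithelial markers summed to 1.23 to 1.57 CPM with H2O2 and 0.864 to 1.30 CPM in controls, with Sftpc, Scgb1a1 and Krt8 at 0 in all libraries. Of the 5 leukocyte markers only Cd68 was above 1 CPM, and the list summed to 162 to 169 CPM with H2O2 and 157 to 163 CPM in controls. Fibroblast or mural markers summed to 5.66 to 8.48 CPM with H2O2 and 7.08 to 7.66 CPM in controls, and mesothelial and erythroid markers were below 1 CPM. Lymphatic endothelial markers summed to 2245 to 2288 CPM with H2O2 and 2184 to 2239 CPM in controls, with Pdpn below 1 CPM. The part of other cell types in the results below was not tested.

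With H2O2, more transcripts of mitochondrial ribosomal proteins were higher than lower, by small amounts. Of 75 members tested, 23 rose and 4 fell in the quasi-likelihood test of edgeR at a threshold of 0.05, with p-values adjusted over all 12924 genes tested. That is 30.7% higher and 5.33% lower, where the same test called 9.7% of all genes higher and 10.8% lower. The median log2 fold change, H2O2 over control, was 0.061 over the members and -0.0041 over all genes tested, and the largest change was 1.39-fold. With an offset for length and GC content of transcripts, described further on, the members' median was 0.021. In bulk RNA, a change in RNA per cell and a change in the number of cells of a type cannot be told apart.

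Both subunits held rises and falls. Of the 46 Mrpl genes tested, 16 rose and 1 fell, with a median log2 fold change of 0.066 and a range of -0.14 to 0.42. Of the 29 Mrps genes, 7 rose and 3 fell, with a median of 0.056 and a range of -0.16 to 0.48. With the same offset the median was 0.048 for the Mrpl genes and 0.0008 for the Mrps genes, of which 15 were then above 0 and 14 below. The other 29 Mrpl and 19 Mrps genes did not pass the test. Whether the subunits differ from each other was not tested, since genes are not replicates of a condition.

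The counts changed when single libraries were left out, as did those of all genes. In these fits 891 to 1178 of all genes were called higher and 926 to 1313 lower, against 1254 and 1395 with all libraries. The group that loses a library has 2 left, which lowers the power to call. Without H2O2 3, the library that stood apart, 11 Mrpl genes were higher and 3 lower, and 2 Mrps genes were higher and 2 lower. Without H2O2 1, 11 Mrpl and 2 Mrps genes were higher and 0 were lower in either subunit (3 Mrpl and 4 Mrps genes at an unadjusted p under 0.05). Without control 2, 10 Mrpl and 2 Mrps genes were higher and again 0 were lower (3 Mrpl and 4 Mrps genes unadjusted). Leaving out H2O2 2, control 1 or control 3 gave 15, 16 and 12 Mrpl genes and 5, 3 and 4 Mrps genes higher, with 0, 1 and 0 Mrpl genes (3, 4 and 5 unadjusted) and 2, 1 and 1 Mrps genes lower. More members were higher than lower in each of these fits except among the Mrps genes without H2O2 3. With 2 to 5 of 29 Mrps genes higher, these counts are too few to set the small subunit apart from all genes. The DESeq2 test, at the same threshold, called 11 Mrpl genes and 1 Mrps gene (Mrps24) higher and 0 lower in both (2 Mrpl and 3 Mrps genes lower at an unadjusted p under 0.05). Among all genes to which it gave an adjusted p, it called 9.07% higher and 9.56% lower.

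**Figure D1:**
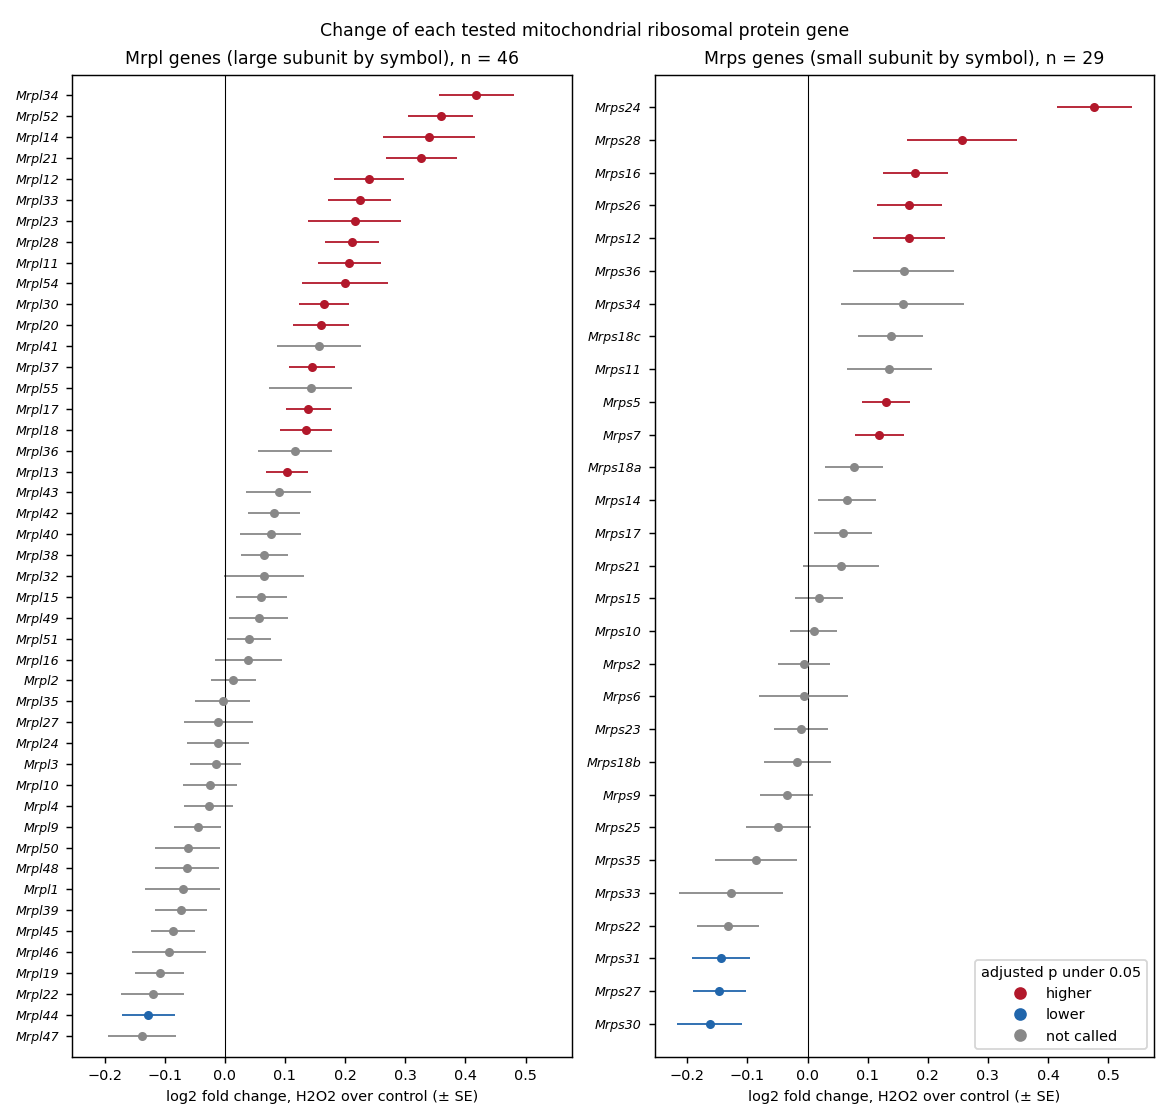
The horizontal axis gives the log2 fold change, H2O2 over control, of each tested member, for 46 Mrpl genes at the left and 29 Mrps genes at the right. Bars give the SE worked back from the F statistic of edgeR's test. Red points rose, blue points fell and grey points did not pass the test: Mrpl34 and Mrps24 lead the rises of their panels at 0.42 and 0.48, and the largest fall is -0.16, of Mrps30.

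Without a model, all 3 H2O2 libraries lay above all 3 control libraries for 26 members and below them for 8, and the groups overlapped for the other 41 tested. Among all genes tested, 16.5% lay above and 18.2% below in this way. In the large subunit 17 members lay above and 5 below, and in the small subunit 9 lay above and 3 below.

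Each library's summed level showed the size of the shift. The Mrpl genes summed to 2058, 2025 and 2102 CPM with H2O2, against 1991, 1963 and 2001 CPM in controls. The groups did not overlap, and the mean was 3.87% higher with H2O2 (2062 ± 38.6 CPM with H2O2 and 1985 ± 19.8 CPM in controls, SD, n = 3 each). The Mrps genes summed to 1011, 998.6 and 1023 CPM with H2O2, against 983.6, 974.7 and 998.8 CPM in controls, a mean 2.57% higher. Here the groups overlapped, as the lowest H2O2 library lay just below the highest control library. The ratio of the Mrpl sum to the Mrps sum was 2.04, 2.03 and 2.05 with H2O2, against 2.02, 2.01 and 2.00 in controls. The ratios of the groups did not overlap, by the narrow gap between 2.0277, the lowest with H2O2, and 2.0243, the highest in controls. H2O2 3, the library that stood apart, had the highest sums and the highest ratio.

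**Figure D2:**
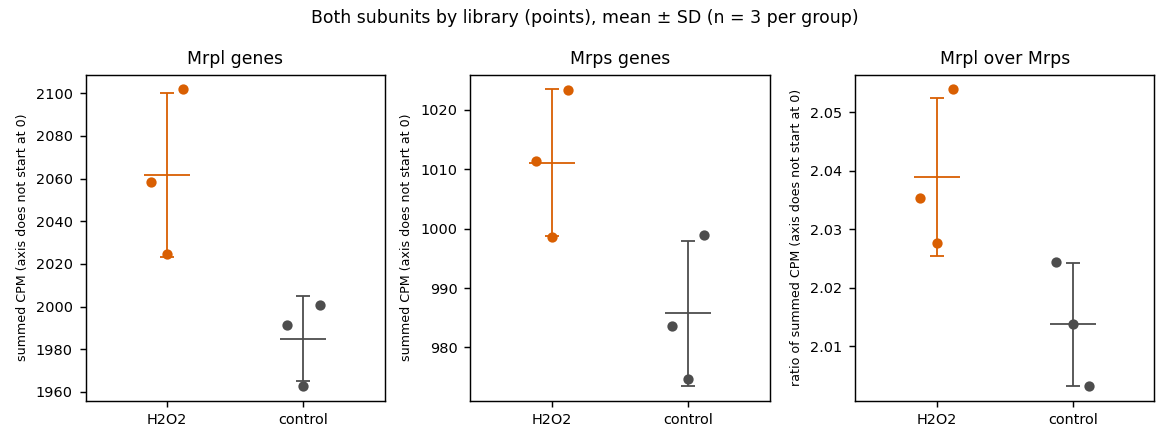
The panels give the summed CPM of the Mrpl genes, the summed CPM of the Mrps genes and the ratio of both sums, with points for the 3 H2O2 and the 3 control libraries and the mean ± SD of each group. The vertical axes do not start at 0, so that differences of 3.87% and 2.57% between group means can be seen; the H2O2 and control points overlap in the Mrps panel only.

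The 4 largest rises in the large subunit were those of Mrpl34, Mrpl52, Mrpl14 and Mrpl21. Mrpl34 (chromosome 8, 71464959 to 71465747, GRCm38, plus strand), a small basic protein of bacterial descent, had 23.3, 23.3 and 24.999 CPM with H2O2, against 17.4, 17.4 and 18.9 CPM in controls. Every H2O2 library was above every control library, and the level rose 1.34-fold (log2 fold change 0.42, SE 0.0627, adjusted p = 1.8e-05). Mrpl52 (chromosome 14, 54426909 to 54429756, plus strand), a protein found in mitochondrial ribosomes only, had 30.5, 30.7 and 29.9 CPM with H2O2, against 23.8, 22.9 and 24.2 CPM in controls. The groups did not overlap, and it rose 1.28-fold (log2 fold change 0.36, SE 0.0541, adjusted p = 1.9e-05).

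Mrpl14 (chromosome 17, 45686322 to 45698495, plus strand), whose bacterial counterpart lies at the interface between the subunits, had 14.7, 14.6 and 14.5 CPM with H2O2, against 11.6, 10.6 and 12.5 CPM in controls. It rose 1.26-fold (log2 fold change 0.34, SE 0.0762, adjusted p = 0.0019). Mrpl21 (chromosome 19, 3282901 to 3292837, plus strand), of bacterial descent, had 29.6, 30.3 and 30.2 CPM with H2O2, against 24.8, 21.8 and 25.4 CPM in controls. It rose 1.25-fold (log2 fold change 0.33, SE 0.0591, adjusted p = 0.00019). For both genes the H2O2 libraries lay close together above the more spread control libraries. Of the exon bases of Mrpl14, 11.2% lie opposite exons of Tmem63b, and of those of Mrpl21, 5.82% lie opposite exons of Ighmbp2, and the strand setting of the counting was not given in the sources used here.

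In the small subunit Mrps24 changed most. Mrps24 (chromosome 11, 5703983 to 5715680, minus strand), whose bacterial counterpart sits where messenger RNA enters the small subunit, had 26.1, 24.2 and 23.5 CPM with H2O2, against 17.8, 17.4 and 17.9 CPM in controls. It rose 1.39-fold (log2 fold change 0.48, SE 0.0624, adjusted p = 2.7e-06), and the lowest H2O2 library lay well above the highest control library. Exons of Urgcp on the same strand cover 15.4% of its exon bases, so that part of its reads may have been set aside as ambiguous.

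Mrps28, Mrps16 and Mrps26 followed. Mrps28, the counterpart of a bacterial protein that binds messenger RNA, had 9.55, 8.52 and 9.56 CPM with H2O2, against 7.73, 7.35 and 8.06 CPM in controls, a rise of 1.19-fold (adjusted p = 0.047). Mrps16 had 34.9, 33.9 and 37.6 CPM with H2O2, against 30.5, 30.4 and 33.2 CPM in controls, a rise of 1.13-fold (adjusted p = 0.018). Mrps26 had 34.9, 35.6 and 35.6 CPM with H2O2, against 33.6, 31.6 and 29.0 CPM in controls, a rise of 1.12-fold (adjusted p = 0.025). The groups did not overlap for these 3 genes, but the gaps were small, and each of the calls was lost in at least 3 of the 6 fits that leave out 1 library.

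The falls were smaller. Mrps30 (chromosome 13, 118378381 to 118387252, minus strand) had 25.1, 26.5 and 25.7 CPM with H2O2, against 29.3, 29.2 and 28.0 CPM in controls, and fell by 0.16 on the log2 scale (SE 0.0541, adjusted p = 0.033). Mrps27 (chromosome 13, 99344786 to 99415562, plus strand), a pentatricopeptide repeat protein that binds RNA, had 39.5, 40.4 and 41.3 CPM with H2O2, against 44.9, 44.6 and 44.7 CPM in controls, and fell by 0.15 (SE 0.0441, adjusted p = 0.018). Mrpl44 (chromosome 1, 79776018 to 79781445, plus strand), a protein with a ribonuclease III fold near the exit of the peptide tunnel, had 47.5, 48.0 and 49.999 CPM with H2O2, against 50.8, 53.5 and 54.7 CPM in controls. It fell by 0.13 on the log2 scale (SE 0.0436, adjusted p = 0.038). The groups of these 3 genes did not overlap. Mrps31, the fourth gene that fell (log2 fold change -0.14, adjusted p = 0.034), had 42.8, 43.8 and 45.1 CPM with H2O2, against 44.9, 49.9 and 50.9 CPM in controls, and its groups overlapped. Exons of other genes run antisense to 24.2% of the exon bases of Mrps27, 9.35% of those of Mrps30 and 7.66% of those of Mrpl44.

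**Figure D3:**
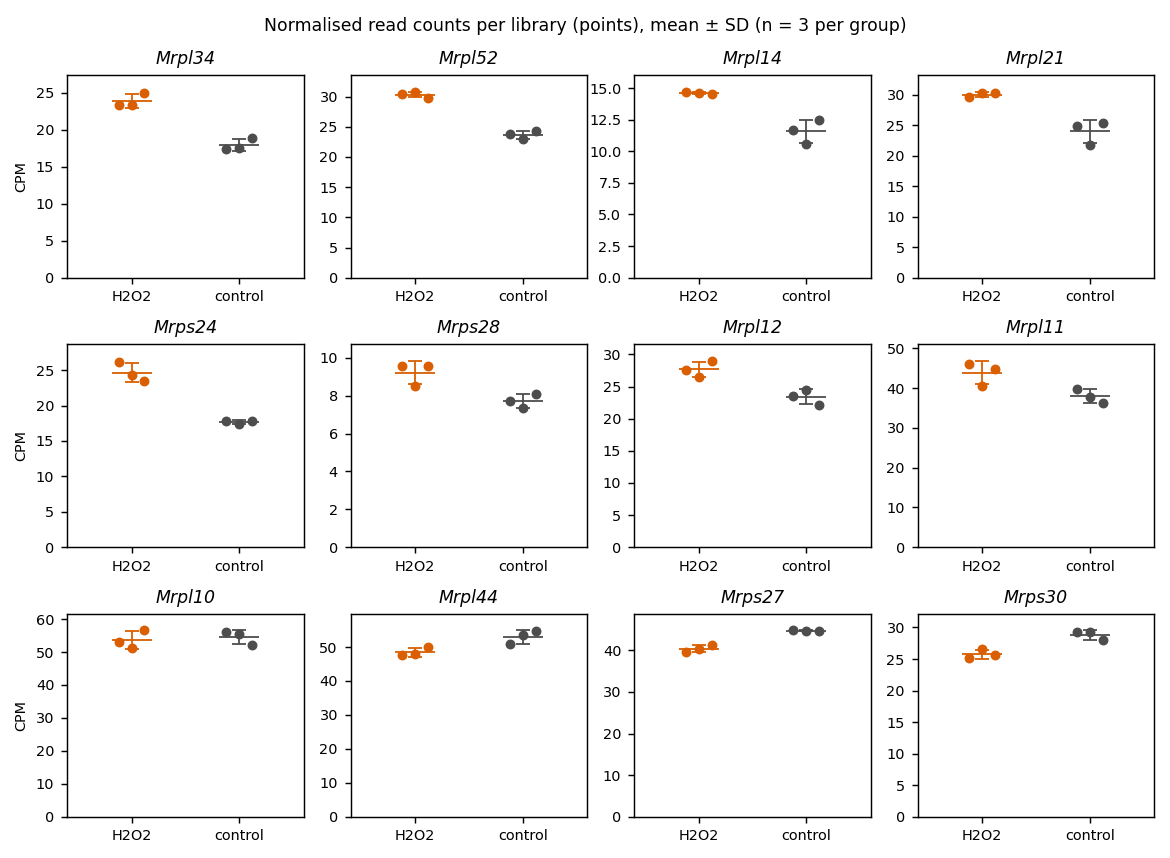
Each panel gives the CPM of a gene on a vertical axis that starts at 0, with points for the 3 H2O2 and the 3 control libraries and the mean ± SD of each group. The H2O2 points lie above the control points for Mrpl34, Mrpl52, Mrpl14, Mrpl21, Mrps24, Mrps28, Mrpl12 and Mrpl11, mix with them for Mrpl10, and lie below them for Mrpl44, Mrps27 and Mrps30.

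The 150 bases before the RefSeq transcription start (GRCm38.p6) are shown for the leading rises and falls in 5' to 3' direction of the gene, so that members that moved in the same direction can be compared by their motifs. Capitals mark a match to one of the motifs searched on both strands: CCGGAAG, named ETS here, GCGCANGCG (NRF1), AAGATGGCG (YY1), GGGCGG (SP1), CACGTG (E-box) and TGACGTCA (CRE). The Mrpl34 stretch is chr8:71464776-71464925 on the plus strand, that of Mrpl52 chr14:54426759-54426908 on the plus strand and that of Mrps24 chr11:5707702-5707851 on the minus strand. Those of the genes that fell are chr13:118387253-118387402 on the minus strand for Mrps30, chr13:99344636-99344785 on the plus strand for Mrps27 and chr1:79775868-79776017 on the plus strand for Mrpl44.
Mrpl34: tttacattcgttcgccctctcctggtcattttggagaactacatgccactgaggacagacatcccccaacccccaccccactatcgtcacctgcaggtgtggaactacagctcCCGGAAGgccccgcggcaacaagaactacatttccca
Mrpl52: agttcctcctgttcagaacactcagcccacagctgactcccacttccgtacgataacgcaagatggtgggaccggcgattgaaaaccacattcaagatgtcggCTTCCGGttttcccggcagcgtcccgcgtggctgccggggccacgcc
Mrps24: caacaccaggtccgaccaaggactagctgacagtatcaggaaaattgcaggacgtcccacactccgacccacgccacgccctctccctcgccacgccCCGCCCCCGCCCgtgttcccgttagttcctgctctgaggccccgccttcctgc
Mrps30: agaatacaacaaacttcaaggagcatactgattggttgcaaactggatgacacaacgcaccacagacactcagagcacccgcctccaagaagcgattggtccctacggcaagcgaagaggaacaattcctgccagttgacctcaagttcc
Mrps27: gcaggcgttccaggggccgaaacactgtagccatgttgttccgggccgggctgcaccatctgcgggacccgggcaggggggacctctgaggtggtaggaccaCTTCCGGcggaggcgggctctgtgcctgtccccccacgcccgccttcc
Mrpl44: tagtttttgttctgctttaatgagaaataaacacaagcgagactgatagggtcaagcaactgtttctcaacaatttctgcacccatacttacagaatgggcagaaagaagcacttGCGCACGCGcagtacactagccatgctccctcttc
The ETS motif stands in the stretches of Mrpl34, Mrpl52 and Mrps27, the NRF1 motif in that of Mrpl44, and the SP1 motif at 2 places in that of Mrps24. None of the 6 motifs is in the Mrps30 stretch. The ETS motif was thus found beside genes that rose and beside a gene that fell.

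Over the whole window of 300 bases, 250 before and 50 after the start, RefSeq's table had promoters for 67 of the 76 members. The ETS motif was in 23 of these 67 (34.3%), against 9.12% of all 27025 promoters in the table and 18.4% of those of genes tested here. The NRF1 motif was in 22.4% of the members, 6.47% of all promoters and 14.1% of those of tested genes. The YY1 motif was in 11.9% of the members, 1.495% of all and 3.23% of those of tested genes. These 3 motifs were more frequent at the members than at either set of promoters. The SP1 motif was in 49.3% of the members, 35.9% of all promoters and 65.5% of those of tested genes, the E-box in 7.46%, 7.24% and 10.3%, and the CRE in 2.99%, 1.88% and 3.34%. Of the 20 members that rose and have a promoter in the table, 9 (45.0%) held the ETS motif, against 12 of 42 (28.6%) that did not pass the test and 1 of 4 that fell. For the other frequent motifs the members that rose and those that did not pass were closer: NRF1 was in 5 of 20 and 9 of 42, SP1 in 11 and 22, and YY1 in 2 and 5. Between subunits, the SP1 motif was in 16 of 41 Mrpl promoters (39.0%) and 17 of 26 Mrps promoters (65.4%), the ETS motif in 12 and 11, the NRF1 motif in 11 and 4, and the YY1 motif in 4 and 4. None of these differences in motif share was tested. A match is a description of letters, not a bound site.

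The members' genes lie on 17 chromosomes, with 10 on chromosome 11 and 8 on chromosome 17. A protein-coding gene starts on the opposite strand within 1000 nt of the start of 32 of the 76 members (42.1%), against 2000 of 12088 tested protein-coding genes (16.5%). The genes of such a pair face away from each other or overlap at their 5' ends. Of these 32 neighbours, 2 rose, 6 fell, 20 did not pass the test and 4 were not tested. Among all genes tested, 9.7% were higher and 10.8% lower, and the neighbours' counts are too few to set them apart. Mrpl46 and Mrps11 are members themselves and count as each other's neighbour. Members and neighbours did not always move together. Mrpl21 rose while Ighmbp2, a helicase gene that overlaps its 5' end, fell (log2 fold change -0.31, SE 0.0684, adjusted p = 0.0015). Mrpl13 rose while Mtbp fell (log2 fold change -0.17, adjusted p = 0.0026). The call of Mrpl13 was weak, as it was kept in 0 of the 6 fits without 1 library. It was also lost with the length and GC offset (adjusted p = 0.056) and in DESeq2 (adjusted p = 0.064). Exons of Ighmbp2 lie opposite 5.82% of the exon bases of Mrpl21, and those of Mtbp opposite 4.16% of those of Mrpl13. The strand setting of the counting was not given. Mrpl44 and Wdfy1 both fell, as did Mrps27 and Ptcd2. The neighbours that rose were Ndufb5, of respiratory complex I (log2 fold change 0.32, adjusted p = 0.00015), beside Mrpl47, and Fau, which encodes a cytosolic ribosomal protein (0.25, adjusted p = 4.3e-06), beside Mrpl49. Mrpl47 itself had a log2 fold change of -0.14 (adjusted p = 0.087) and Mrpl49 one of 0.056 (adjusted p = 0.47). Mrpl46 and Mrps11, which start beside each other, had log2 fold changes of -0.092 and 0.14 and neither passed the test.

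Grouped by descent, the proteins with a bacterial counterpart, which are most of the members, held most of the rises. Of 46 such members tested, 19 rose (41.3%) and 0 fell, with a median log2 fold change of 0.084. Of 28 members classed as mitochondria-specific, 4 rose (Mrpl52, Mrpl54, Mrpl37 and Mrps26) and 4 fell (Mrps30, Mrps27, Mrps31 and Mrpl44), 14.3% each, with a median of -0.014. This class holds Mrps18a and Mrps18b, which are paralogues of Mrps18c, a member of the bacterial-type group. The shares of the mitochondria-specific members are near those of all genes tested, 9.7% higher and 10.8% lower. Whether the groups by descent differ was not tested. The count of 0 falls in the bacterial-type group is that of edgeR's test after adjustment; 3 of its members were lower at an unadjusted p under 0.05, the DESeq2 test also called 0 (1 unadjusted), and Mrpl9, Mrpl19, Mrpl22 and Mrpl47 had all H2O2 libraries below all control libraries. In the large subunit, counted by position in the ribosome, 13 of 30 proteins of bacterial descent rose and 0 fell, and 3 of 18 mitochondria-specific ones rose and 2 fell. In the small subunit, 6 of 16 of bacterial descent rose and 0 fell, and 1 of 10 mitochondria-specific ones rose and 2 fell, with a median of -0.067. The mitochondria-specific counts of both subunits are too few to set apart from the shares of all genes. The transcripts of the bacterial-type group are shorter, with a median of 1008 nt against 1404.5 nt (each gene's length is the median of its GENCODE basic transcripts). With a length and GC offset, 13 bacterial-type members were higher and 1 lower (median 0.068), and 3 mitochondria-specific members were higher and 4 lower (median -0.028). Of all genes tested, 9.92% were then higher and 10.2% lower.

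The stalk of the large subunit, which recruits the translation factors, was split. Mrpl12, the counterpart of the mobile bacterial stalk protein, had 27.6, 26.5 and 28.9 CPM with H2O2, against 23.6, 24.5 and 22.2 CPM in controls, and rose 1.18-fold (adjusted p = 0.0038). Mrpl11, at the base of the stalk, had 46.1, 40.6 and 44.8 CPM with H2O2, against 39.8, 37.7 and 36.3 CPM in controls, and rose 1.15-fold (adjusted p = 0.0048). Mrpl10, which anchors Mrpl12, had 53.2, 51.3 and 56.8 CPM with H2O2, against 56.2, 55.5 and 52.2 CPM in controls (log2 fold change -0.025, SE 0.0453, adjusted p = 0.76). The groups stood apart for Mrpl12 and Mrpl11 and overlapped for Mrpl10.

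Around the exit of the peptide tunnel, where new proteins leave toward the inner membrane, 2 of 8 members rose (Mrpl17 and Mrpl23), 1 fell (Mrpl44), and the median was -0.080. With the offset, 1 was higher and 2 lower, with a median of -0.048. DESeq2 called 1 higher and 0 lower (1 lower unadjusted). The call of Mrpl23 was lost with the offset (adjusted p = 0.24) and in DESeq2 (adjusted p = 0.15). Counts among 8 genes are too few to set them apart from all genes tested, 9.7% higher and 10.8% lower. Mrpl45, which contacts the inner membrane, had 98.5, 97.0 and 104 CPM with H2O2, against 105, 109 and 104 CPM in controls, with groups that overlapped (log2 fold change -0.087, SE 0.0368, adjusted p = 0.10). Of the 5 Mrpl genes listed here for the central protuberance, a list that may not be complete, Mrpl18 rose (log2 fold change 0.14, adjusted p = 0.027). Mrpl38, Mrpl40, Mrpl46 and Mrpl48 did not pass the test, with log2 fold changes of 0.066, 0.076, -0.092 and -0.063.

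In the small subunit Mrps12, of the decoding centre, had 23.4, 22.4 and 23.5 CPM with H2O2, against 19.8, 20.5 and 21.4 CPM in controls, and rose 1.12-fold (adjusted p = 0.048). This call was lost with the offset (adjusted p = 0.35) and in DESeq2 (adjusted p = 0.14). It was kept in 1 of the 6 fits without 1 library. Mrps5 and Mrps7, both of bacterial descent, also rose (1.09-fold, adjusted p = 0.019, and 1.09-fold, adjusted p = 0.037). Their calls were lost in DESeq2 and kept in 3 and 2 of these 6 fits. The 3 paralogues of the S18 family did not pass the test: Mrps18c, in the small subunit, had a log2 fold change of 0.14 (adjusted p = 0.070) with groups that did not overlap, Mrps18a one of 0.077 (adjusted p = 0.29) and Mrps18b one of -0.017 (adjusted p = 0.88). Some symbols do not match the place of the protein: in the mammalian ribosome Mrps30 and Mrps18a are in the large subunit, and Mrps36 is now known as a part of the 2-oxoglutarate dehydrogenase complex. Mrps36 had 11.2, 11.0 and 11.5 CPM with H2O2, against 10.9, 9.08 and 10.2 CPM in controls, with groups that did not overlap by a narrow gap (log2 fold change 0.16, SE 0.0842, adjusted p = 0.20). Counted by position, 16 of 48 large subunit genes rose and 2 fell, and 7 of 26 small subunit genes rose and 2 fell. The shares over all genes tested were 9.7% higher and 10.8% lower.

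The other large subunit genes that rose were Mrpl33, Mrpl23, Mrpl28, Mrpl54, Mrpl30, Mrpl20, Mrpl37, Mrpl17 and Mrpl13, by 1.07-fold to 1.17-fold. The groups overlapped for Mrpl54 and stood apart for the rest. The smallest rise that passed the test in any member was that of Mrpl13, 7.42%. Its call was lost with the offset, in DESeq2 and in each fit without 1 library. A total of 48 tested members had log2 fold changes between -0.14 and 0.16 and did not pass, which does not show that they were unchanged. Mrpl53 was left out of the test, as it had 0 counts in all 6 libraries. Exons of other genes on the same strand cover 88.0% of its exon bases, so its reads may have been set aside as ambiguous, and the 0 says nothing about its level.

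Members differed far more in level than in response. Per kilobase of transcript, Mrpl33 had the highest mean of all members (89.7 CPM per kb) and Mrpl30 the next (81.9), both of bacterial descent. Among Mrps symbols Mrps18a (67.1 CPM per kb), whose protein is in the large subunit, and Mrps10 (66.0) were highest, followed by Mrps21 (63.3), and Mrps35 was lowest of all members with counts (3.99). The medians were 34.0 CPM per kb for Mrpl genes and 25.5 for Mrps genes. Levels per kb depend on the transcript length chosen for a gene, and genes with long annotated transcripts, such as Mrps35 and Mrps25, come out low. Mrpl30 rose 1.12-fold and Mrpl33 1.17-fold, whereas Mrps10 (log2 fold change 0.010) and Mrps18a did not pass the test.

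The response of the members went with the length of their transcripts, as did that of other genes. Among members, the Spearman correlation between log2 fold change and transcript length was -0.50 over 75 genes, -0.64 over 46 Mrpl genes and -0.28 over 29 Mrps genes, as a description across genes measured in the same libraries. Below 750 nt, 9 of 18 members rose and 0 fell, and the median log2 fold change was 0.16 for members and 0.087 for 924 other genes of that length. From 3000 nt on, 2 of 11 members rose and 1 fell, and the medians were -0.049 for members and -0.019 for other genes. Calls among other genes were not counted by length. Over all lengths, 9.7% of all genes tested were higher and 10.8% lower, and calls of 2 and 1 of 11 members are too few to set apart from these shares. The response also went with GC content, with a Spearman correlation of 0.47 over 75 genes, 0.46 over Mrpl genes and 0.47 over Mrps genes.

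With a length and GC offset for each library, taken from genes that are neither members nor cytosolic ribosomal proteins, the members' shift was smaller. Then 16 members were higher and 5 lower, where 9.92% of all genes tested were higher and 10.2% lower. In the large subunit 11 were higher and 2 lower, with a median log2 fold change of 0.048, and in the small subunit 5 were higher and 3 lower, with a median of 0.0008. The 11 Mrpl and 5 Mrps genes were all among those that rose without the offset. Mrpl22 (log2 fold change with the offset -0.17, adjusted p = 0.015) was lower with the offset and not without it, as was Mrps22 (-0.16, adjusted p = 0.022), and Mrps30 no longer passed (-0.14, adjusted p = 0.055). Mrps24 (0.44), Mrpl34 (0.33), Mrpl21 (0.28), Mrpl52 (0.27) and Mrpl14 (0.25) still led the rises. The correlation with length was then -0.29 over all 75 members, -0.47 over Mrpl genes and -0.030 over Mrps genes. That with GC content was 0.36 over all members, 0.36 over Mrpl genes and 0.41 over Mrps genes, so most of it remained after the correction.

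**Figure D4:**
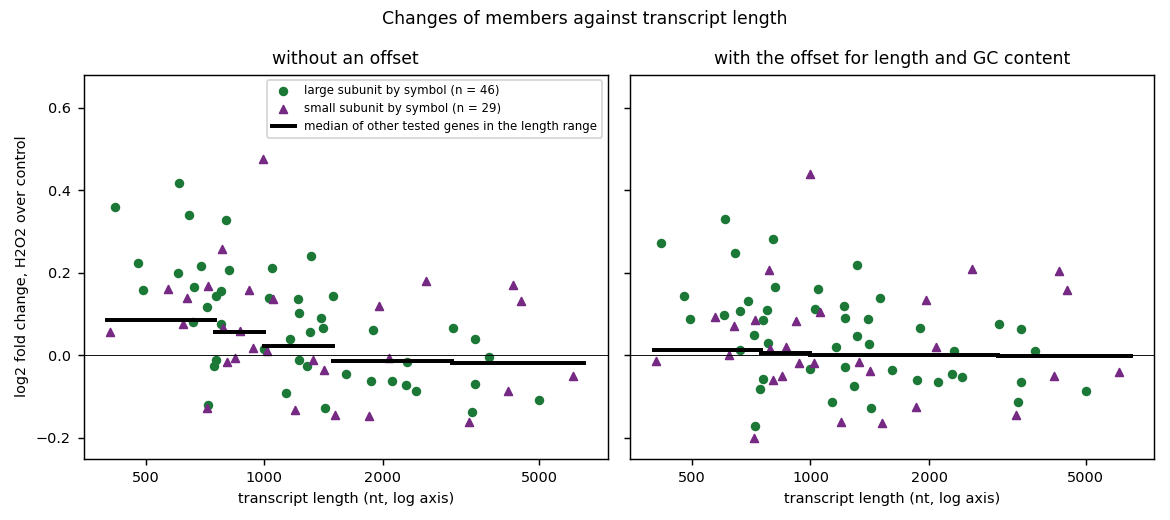
Points give the log2 fold change, H2O2 over control, of 46 Mrpl and 29 Mrps genes against transcript length on a log axis, without an offset at the left and with a correction for both length and GC content at the right. Black lines give the median of other tested genes in 5 ranges of length, from 0.087 below 750 nt to -0.019 from 3000 nt on without the offset, and close to 0 with it; the 18 members below 750 nt have a median of 0.16 without the offset and 0.087 with it.

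Of the calls, 8 rises in the large subunit (Mrpl34, Mrpl52, Mrpl14, Mrpl21, Mrpl12, Mrpl33, Mrpl28 and Mrpl11) and 1 in the small subunit (Mrps24) held in all 16 other fits, which include every fit without 1 library. None of the 4 falls (Mrps30, Mrps27, Mrps31 and Mrpl44) held in all of them. The adjusted p of Mrps24 was at most 7.7e-05 over these fits, and that of Mrpl11 reached 0.047.

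Proteins of the mitochondrial ribosome that carry other symbols were looked up beside the members. Of 7 such genes, 4 rose (57.1%) and 0 fell in edgeR's test (0 also at an unadjusted p under 0.05, and in DESeq2). The shares over all genes tested were 9.7% higher and 10.8% lower. Among so few genes, a count of 0 falls does not set the list apart, and whether the list differs from all genes was not tested. Chchd1, of the small subunit, had 43.7, 41.4 and 41.3 CPM with H2O2, against 30.4, 30.7 and 28.7 CPM in controls, and rose 1.41-fold (SE of log2 fold change 0.0495, adjusted p = 3.4e-08), slightly more than Mrps24. Gadd45gip1, of the large subunit, had 12.4, 11.8 and 12.6 CPM with H2O2, against 7.82, 8.68 and 9.95 CPM in controls, and rose 1.40-fold (adjusted p = 0.00022). Mrp63, an older symbol of a large subunit protein, rose 1.24-fold (adjusted p = 7.3e-05), and these 3 calls were also made with the offset and in DESeq2. Aurkaip1 rose 1.09-fold (adjusted p = 0.042), a call lost with the offset (adjusted p = 0.22) and in DESeq2 (adjusted p = 0.11). Dap3 and Ptcd3, of the small subunit, had log2 fold changes of -0.037 and -0.020, and Ict1, a peptidyl-tRNA hydrolase built into the large subunit, one of 0.081, and none of them passed the test.

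The ribosomal RNAs of the mitochondrion moved the other way. Reads on mt-Rnr1, the RNA of the small subunit, came to 305, 316 and 268 CPM with H2O2, against 420, 491 and 483 CPM in controls, and fell by 0.65 on the log2 scale (SE 0.0482, adjusted p = 1.5e-10). Reads on mt-Rnr2, the RNA of the large subunit, came to 784, 770 and 754 CPM with H2O2, against 922, 1179 and 1133 CPM in controls, and fell by 0.49 (SE 0.0504, adjusted p = 5.5e-08). Neither pair of groups overlapped, and both falls held in all 16 other fits. The libraries were made with a kit for messenger RNA, so these values describe what such a library retains of the ribosomal RNAs, and reads that also align to nuclear copies of mitochondrial DNA may have been set aside.

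Of 21 assembly factors of the mitochondrial ribosome measured, 1 rose (4.76%) and 3 fell (14.3%), with a median log2 fold change of -0.088. Of all genes tested, 9.7% were higher and 10.8% lower, and calls of 1 and 3 genes are too few to set the list apart. All H2O2 libraries lay below all control libraries for 7 of the 21 and above them for 2, against 18.2% and 16.5% of all genes. Whether the list differs from the members or from all genes was not tested. Dhx30, an RNA helicase, fell by 0.22 on the log2 scale (100.8 ± 4.98 CPM with H2O2 and 117 ± 1.05 CPM in controls, SD, n = 3 each, adjusted p = 8.5e-05). Rpusd4, a pseudouridine synthase, fell by 0.23 (adjusted p = 0.013), and Ngrn, which acts with it on the large subunit RNA, fell by 0.22 (adjusted p = 0.011). Mpv17l2 rose 1.12-fold (adjusted p = 0.041), a call lost with the offset (adjusted p = 0.29) and in DESeq2 (adjusted p = 0.12). With the offset, Gtpbp10, a GTPase, was called lower (log2 fold change -0.16, adjusted p = 0.012), which it was not without the offset (-0.11, adjusted p = 0.093). Then 0 of the 21 were higher (0 also at an unadjusted p under 0.05) and 4 lower (19.05%). Of all genes tested, 9.92% were higher and 10.2% lower with the offset. Of 14 genes for mitochondrial translation factors and messenger RNA handling, 0 rose in edgeR's test (1 at an unadjusted p under 0.05, 0 in DESeq2) and 2 fell: Tufm, the elongation factor that brings tRNA to the ribosome, by 0.13 (98.1 ± 2.24 CPM with H2O2 and 107 ± 4.13 CPM in controls, adjusted p = 0.013), and Lrpprc, which stabilises mitochondrial messenger RNAs, by 0.16 (adjusted p = 0.00088). The other 12 did not pass the test, and so few calls (2 of 14 lower, 14.3%) do not set these genes apart from the share of all genes.

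The proteins of the cytosolic ribosome showed a wider response than those of the mitochondrial one. Of 77 tested, 75 rose and 0 fell in edgeR's test (1 lower at an unadjusted p under 0.05, 0 in DESeq2), with a median log2 fold change of 0.35, against 23 and 4 of 75 and a median of 0.061 for the mitochondrial members. With the offset the medians were 0.29 and 0.021. The difference between these families was not tested.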

How the data were processed

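RNA was measured with mRNA-seq libraries from 3 H2O2 and 3 control samples. The authors deposited a table of raw, unnormalized counts for each library, with 1 row per gene symbol. Per the submitters' processing notes, STAR 2.5.3 and HTSeq were used with the build mm10, next to bcl2fastq 2.17.1.14, cutadapt and DESeq2. As to annotation and strand setting, both are not given in the sources used here. The 5 HTSeq summary classes were kept out of library sizes and tests. Reads without a feature were 4.76% to 5.46% of all counted reads, ambiguous reads 3.17% to 3.30% and reads with several alignments 11.0% to 11.7%; members with near-identical processed copies may lose reads to these classes.

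edgeR 4.0.16 (limma 3.58.1, R 4.3.3) tested 12924 genes that passed filterByExpr with a minimum count of 10, with TMM factors, treatment as the only term and Benjamini-Hochberg adjustment at 0.05. Log2 fold changes are H2O2 over control. The SE was worked back from the test, as the absolute log2 fold change over the square root of its F statistic. Alternatives were DESeq2 1.42.0, limma-voom, other scaling factors, looser and stricter filters (minimum count 50), the replicate number as a block, each library left out, subunits assigned by position, and a loess offset (span 0.3) for transcript length and GC content. Lengths, coordinates and overlaps came from GENCODE M21 on GRCm38, the assembly of mm10, for 99.1% of the tested genes, and promoters from RefSeq on GRCm38.p6. The fits were tested on simulated data. Under a simulated length trend, the check on false calls left out the fit without an offset. Depth was 22455388 to 27618679 counts on genes, and the smallest change called among members was 7.42%.

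The members and gene lists were chosen with earlier results of these data known. Named with full values are, in each subunit, up to 4 rises and 4 falls with the largest change among members that passed without overlap of the groups, the 2 highest levels per kb, members not tested, and members of a stated role. Other members that passed are named after their values were seen. The labels do not say that equal replicate numbers mark a shared origin. Libraries of equal number deviated from their group means with correlations of 0.090, 0.074 and 0.019 over 8281 genes. Those of unequal number gave -0.097 to 0.039. As all of these values are small, the libraries were not treated as pairs.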

Additional observations from a re-analysis of the deposited data

How the results depend on the processing

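The number of Mrpl genes that were lower, 1 with edgeR's test, was 2 with the length and GC offset, with that offset and the replicate block together, and with subunits assigned by position, where Mrps30 counts as large, and 0 in the DESeq2 test, with library size only, with upper-quartile factors and without a filter on low counts. DESeq2 also called 1 Mrps gene higher and 0 lower. The median log2 fold change of the Mrps genes was 0.0008 with the offset, 0.0019 with the offset and the replicate block, and 0.037 by position. The cause of these shifts was not tested. The replicate block alone gave 15 Mrpl genes higher and 1 lower and 7 Mrps genes higher and 3 lower, and 1294 genes higher and 1444 lower in all. Libraries of equal number were not shown to be paired. Control 1 correlated best with H2O2 1 (0.090) and control 2 with H2O2 2 (0.074), but control 3 also with H2O2 2 (0.039, against 0.019 with H2O2 3). With 1 library left out, 10 to 16 Mrpl genes were higher and 0 to 3 lower, and 2 to 5 Mrps genes were higher and 0 to 2 lower. In these fits the median of the Mrps genes was 0.030 to 0.050 and that of the Mrpl genes 0.049 to 0.091, and 891 to 1178 of all genes were higher and 926 to 1313 lower; the group that loses a library has 2 left, which by itself lowers the power to call. No scaling moved the median of all genes beyond -0.0041 to 0.0082, and the medians of both subunits were above 0 under each alternative, except that the small subunit by position, combined with the offset, had -0.0001. No member that passed the test changed direction.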
